A study of Mus musculus with 16 samples.

Results

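The genes described here are 10 of the 35869 in the expression table: S100a8, S100a9, Ltf, Camp, Ngp, Lcn2, Mmp8, Mmp9, Cxcr2 and Retnlg, which encode granule, cytosolic and surface proteins of mature neutrophils. They were chosen by symbol because neutrophil transcripts differed between sorts of these same libraries, so the difference between sorts is a description of them, with no test. The series measured mRNA of brain cells of wild-type (WT) C57/Bl6 mice that were given fluorescent amyloid-beta 1-42 (AB42, a peptide that accumulates in Alzheimer's disease) in vitro and sorted by whether they had taken it up (AB42+) or not (AB42-). There were 16 libraries, with 4 replicates each of young AB42+, young AB42-, old AB42+ and old AB42- cells. Brains of 3 males were combined for each replicate, at an age of 2 months (young) or 18 months (old), although another passage of the source speaks of single mice rather than pools. The protocol gives 2.5 uM AB42 for 2 hours for every sample, while the treatment is listed only for the AB42+ samples. Cells were gated as live, CD45-intermediate and CD11b+ and are named microglia, the resident macrophages of the brain, in the labels. CD11b is also on the surface of neutrophils and monocytes, which in blood usually carry more CD45 than microglia do. All groups shared the enrichment, the peptide and the gate, and no library of cells without peptide was analysed here.

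Neutrophils are short-lived granulocytes that mature in the bone marrow and fill their granules in a fixed order. Primary granules with myeloperoxidase and the serine proteases are made in promyelocytes, secondary granules with lactoferrin and cathelicidin follow, and gelatinase granules come last, together with the surface receptors that let the cell leave the marrow. S100a8 and S100a9 pair to form calprotectin, a cytosolic calcium-binding alarmin that is among the most abundant proteins of the cell. In the healthy brain neutrophils are few in the tissue itself and are found mainly in blood vessels, meninges and skull marrow.

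The members lie on 5 chromosomes of the GRCm38.p6 build (mm10) in the RefSeq annotation. S100a8 (chr3:90669071-90670034) and S100a9 (chr3:90692630-90695721) are neighbours in the S100 cluster, 22.6 kb apart and on opposite strands. Camp (chr9:109847377-109849456), Ngp (chr9:110419808-110423012) and Ltf (chr9:111019292-111042766) fall within 1195.4 kb of chromosome 9, and Mmp8 (chr9:7558429-7568486) is far from them on the same chromosome. Lcn2 (chr2:32384637-32387739) and Mmp9 (chr2:164940326-164955850) are on chromosome 2, Cxcr2 (chr1:74153994-74161246) on chromosome 1 and Retnlg (chr16:48872608-48874498) on chromosome 16.

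C/EBP-epsilon, encoded by Cebpe, is the transcription factor required for secondary granule genes, and PU.1, encoded by Spi1, acts throughout myeloid cells. The 250 bases before the annotated start were taken from RefSeq for the 9 members that matched, all but Mmp9, and searched on both strands. The C/EBP motif TTGCNNAA was in 6 of the 9 (S100a9, Ltf, Ngp, Lcn2, Mmp8 and Retnlg) and in 9.56% of all 32851 promoters of the same length. The PU.1 motif GAGGAA was in 5 of the 9 (S100a8, Ltf, Lcn2, Mmp8 and Cxcr2) and in 23.3% of all promoters. The letters of these motifs do not overlap in the members, and a match is a description of sequence only. Below are 4 granule genes with a C/EBP match, printed on the strand of the gene, 5′ to 3′, ending at the base before the start, with the C/EBP match in capitals. They are Ltf at chr9:111019042-111019291 (plus strand), Ngp at chr9:110419558-110419807 (plus strand), Lcn2 at chr2:32387740-32387989 (minus strand) and Mmp8 at chr9:7558179-7558428 (plus strand). Ngp holds 2 matches, of which the nearer begins 11 bases before the start, and the match of Mmp8 begins 19 bases before it.
Ltf: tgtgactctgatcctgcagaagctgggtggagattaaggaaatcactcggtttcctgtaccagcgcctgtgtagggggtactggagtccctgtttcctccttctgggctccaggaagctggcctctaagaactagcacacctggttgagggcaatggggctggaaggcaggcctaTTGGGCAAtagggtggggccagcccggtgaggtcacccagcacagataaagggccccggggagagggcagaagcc
Ngp: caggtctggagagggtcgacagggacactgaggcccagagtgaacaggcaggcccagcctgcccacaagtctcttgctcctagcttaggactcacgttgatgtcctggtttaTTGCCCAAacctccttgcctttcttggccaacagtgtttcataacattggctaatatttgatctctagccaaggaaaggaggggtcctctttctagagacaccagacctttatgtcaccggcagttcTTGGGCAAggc
Lcn2: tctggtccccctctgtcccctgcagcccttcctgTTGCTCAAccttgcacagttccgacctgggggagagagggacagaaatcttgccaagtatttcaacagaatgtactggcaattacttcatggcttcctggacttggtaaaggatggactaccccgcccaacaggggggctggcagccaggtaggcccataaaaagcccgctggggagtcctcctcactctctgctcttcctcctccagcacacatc
Mmp8: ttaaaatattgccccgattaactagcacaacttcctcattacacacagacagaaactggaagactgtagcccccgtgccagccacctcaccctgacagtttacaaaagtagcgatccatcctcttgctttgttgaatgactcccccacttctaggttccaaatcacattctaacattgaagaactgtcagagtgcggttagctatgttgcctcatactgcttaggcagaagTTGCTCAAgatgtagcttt

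Values are TPM, read density per gene length scaled to a common total, so levels can be compared between genes but the depth of a library is unknown and no counting interval is given. The authors removed duplicate reads before counting. With reads of 85 bases from a single end, this keeps at most 1 read per start position and strand, which limits the highest values, and the highest TPM of any gene in a library was only 1197.56 to 3784.68. The part of this limit in the results was not tested. Old AB42+ replicate 3 stood apart from the other old AB42+ libraries. Its members summed to 3577 TPM against 5705 to 6960 in the other 3, and its level of olfactory and vomeronasal receptor genes, receptors of sensory neurons that serve here as a background, was the highest of the series, 11.6 TPM against 0.328 to 6.89 in the other 15 libraries.

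The cells did not carry microglial transcripts alone. The 10 members together summed to between 2954 TPM, in a young AB42+ library, and 9983 TPM, in an old AB42- library, which is 0.295% to 0.998% of all TPM. The median of the sum was 3391 TPM in young AB42+, 6265 in old AB42+, 8265 in young AB42- and 8966 in old AB42- libraries. Markers of microglia, 15 genes including P2ry12 and Tmem119, summed to 4090 to 4653 TPM in young AB42+ and to 1585 to 2924 TPM in old AB42- libraries. In bulk samples, a larger share of neutrophils and more of these transcripts per cell cannot be told apart.

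**Figure D1:**
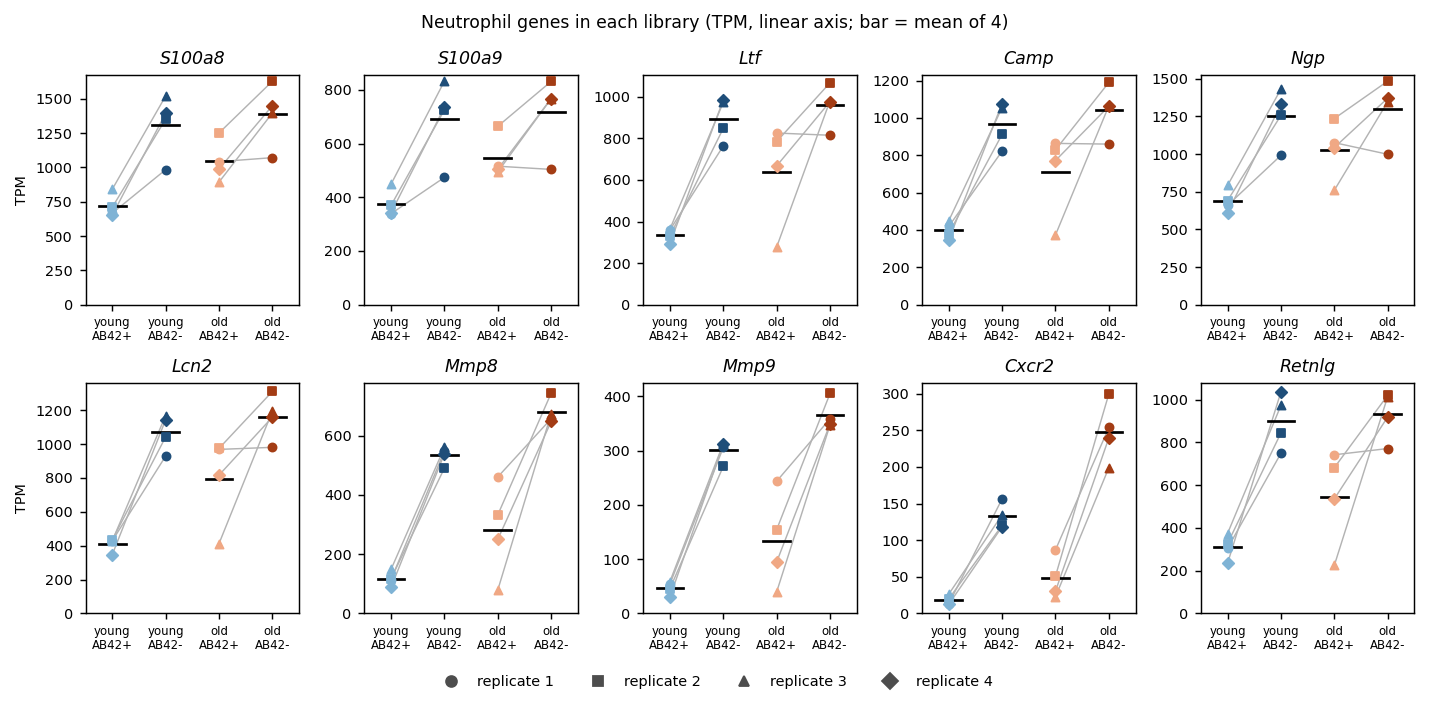
TPM of each member in the 16 libraries on a linear axis from 0. Points are libraries, shaped by replicate number, black bars are means of 4, and grey lines join the AB42+ and AB42- sorts of the same pool. The young AB42- points lie above the young AB42+ points in all 10 panels, and old AB42+ replicate 3 is the lowest old point in each.

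In young pools all 10 members were higher in AB42- than in AB42+ cells of the same pool, in 4 of 4 pools. Of all genes that reached 1 TPM in 4 or more of the young libraries, 10.9% were higher in AB42- in all 4 young pools, and since this contrast chose the members nothing is read from the comparison of these shares. The median ratio of AB42- to AB42+ TPM over 4 young pools ran from 1.81 for Ngp to 7.84 for Cxcr2. In old pools 6 of 10 members were higher in AB42- in every pool, where 15.3% of all genes were, and the other 4, S100a9, Ltf, Camp and Ngp, were slightly lower in AB42- cells of pool 1 only, with ratios of 0.977, 0.987, 0.996 and 0.928. Young AB42- libraries lay above all young AB42+ libraries for 10 of 10 members (4.05% of all genes), and old AB42- above all old AB42+ libraries for 5 of 10, Lcn2, Mmp8, Mmp9, Cxcr2 and Retnlg (8.12% of all genes). Leaving out old pool 1, all 10 were higher in AB42- in the 3 remaining pools, and leaving out any other old pool the count stayed at 6.

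The median ratio over the 10 members was 1.02 in old pool 1, 1.40 in pool 2, 3.22 in pool 3 and 1.49 in pool 4, against 2.15, 2.48, 2.64 and 3.33 in young pools 1 to 4. Pool 3, whose ratio was the highest, is the pool with the AB42+ library that stood apart, and pool 1 had the highest AB42+ and the lowest AB42- levels of Ltf, Camp and Retnlg. The median coefficient of variation over the members was 36.3% in old AB42+ libraries, against 12.8% in young AB42+, 12.9% in young AB42- and 12.8% in old AB42- libraries. Without old AB42+ replicate 3 it was 14.3% in old AB42+ libraries. Across all genes the median log2 difference between AB42- and AB42+ cells was -0.39, -1.02, -1.09 and -0.76 in old pools 1 to 4 and between -0.09 and 0.26 in young pools, so the old AB42- libraries held lower values for most genes while most members were higher. The background level was 1.27, 5.24, 11.6 and 4.98 TPM in old AB42+ replicates 1 to 4. In old AB42- replicates 1 to 4 it was 0.328, 0.779, 2.89 and 1.25 TPM. The part of this background in the medians was not tested.

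**Figure D2:**
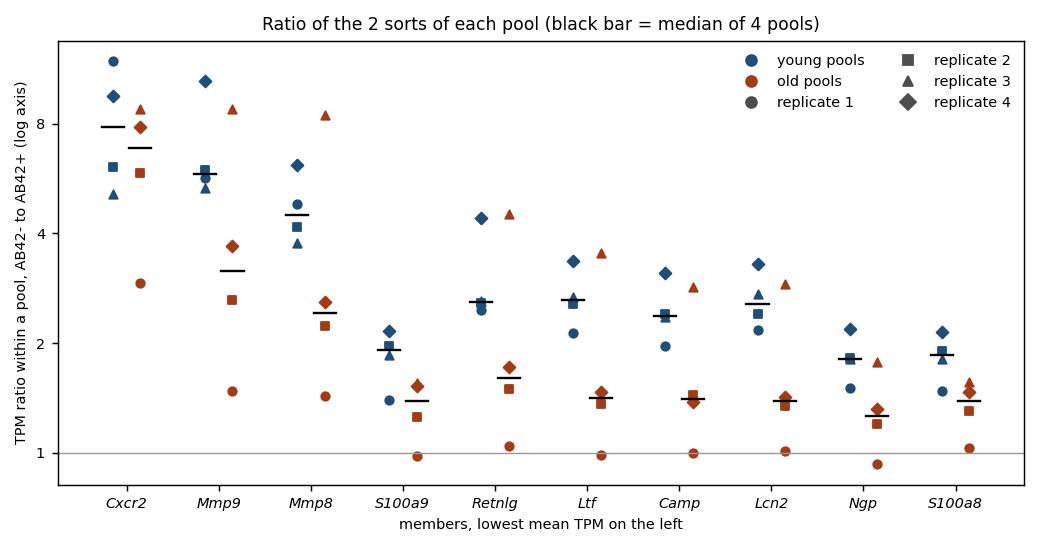
Ratio of AB42- to AB42+ TPM within each pool on a log axis, for members ordered from the lowest mean TPM on the left to the highest on the right. Points are pools, young in blue and old in brown, shaped by replicate number, and black bars are medians of 4. Cxcr2, Mmp9 and Mmp8 have the highest young medians (7.84, 5.82 and 4.49), and old pool 1 lies at or near 1 for the other 7 members.

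The alarmin genes kept a steady ratio to each other. S100a8 read 667, 709, 840 and 652 TPM in young AB42+ replicates 1 to 4, 1042, 1251, 893 and 989 in old AB42+, 983, 1351, 1520 and 1394 in young AB42-, and 1071, 1628, 1397 and 1450 in old AB42- libraries. It ranked among the 6 highest genes of every old AB42- library and was the highest of all in old AB42- replicates 2 and 4. S100a9, its partner, read 339, 370, 449 and 342 TPM in young AB42+, 516, 664, 495 and 505 in old AB42+, 474, 725, 832 and 736 in young AB42-, and 504, 832, 768 and 768 in old AB42- libraries. All old AB42+ libraries were above all young AB42+ libraries for both genes, while old AB42+ and young AB42- libraries overlapped, as did young and old AB42- libraries. The ratio of S100a9 to S100a8 TPM stayed within 0.470 to 0.554 in the 16 libraries, although S100a8 itself varied from 652 to 1628 TPM. Between sorts the median ratio was 1.86 for S100a8 and 1.91 for S100a9 in young pools, and 1.38 and 1.39 in old pools.

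Secondary granule genes followed. Ltf encodes the iron-binding protein lactoferrin, Camp the cathelicidin precursor of an antimicrobial peptide, Ngp a granule protein of the cystatin fold, and Lcn2 the siderophore-binding protein lipocalin 2. Ltf read 359, 331, 363 and 294 TPM in young AB42+, 826, 785, 277 and 668 in old AB42+, 763, 848, 973 and 985 in young AB42-, and 815, 1067, 981 and 977 in old AB42- libraries. The 277 TPM of old AB42+ replicate 3 was below every young AB42+ value, and the other 3 old AB42+ libraries were above them all. Camp ranged from 346 to 449 TPM in young AB42+, 373 to 864 in old AB42+, 822 to 1077 in young AB42- and 860 to 1190 in old AB42- libraries. Ngp, the most abundant of the 4, ranged from 610 to 792, 760 to 1236, 991 to 1431 and 998 to 1484 TPM in the same order of groups. Lcn2 ranged from 346 to 433, 412 to 975, 929 to 1168 and 981 to 1311 TPM. For these 4 genes each group overlapped the next in the order of means. Between sorts the young median ratio was 2.62 for Ltf, 2.38 for Camp, 1.81 for Ngp and 2.57 for Lcn2, and the old one 1.41, 1.41, 1.26 and 1.38.

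Mmp8, Mmp9 and Cxcr2 were the members of lowest level and had the highest median ratios between sorts in both ages. Mmp8 encodes neutrophil collagenase and read 114, 117, 149 and 87.7 TPM in young AB42+, 461, 333, 79.5 and 250 in old AB42+, 549, 491, 561 and 539 in young AB42-, and 658, 744, 674 and 648 in old AB42- libraries. Mmp9 encodes gelatinase B and read 54.0, 45.4, 58.7 and 29.6 TPM in young AB42+, 244, 154, 39.6 and 94.8 in old AB42+, 306, 271, 313 and 312 in young AB42-, and 359, 406, 347 and 349 in old AB42- libraries. For both proteases the old AB42+, young AB42- and old AB42- libraries formed ranges that did not overlap each other, and old AB42+ replicate 3 fell within or below the young AB42+ range.

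Cxcr2, the chemokine receptor that draws mature neutrophils out of the marrow and toward CXC ligands, read 13.1, 19.7, 26.2 and 12.4 TPM in young AB42+, 86.8, 51.0, 22.7 and 30.5 in old AB42+, 156, 120, 135 and 118 in young AB42-, and 254, 300, 199 and 240 in old AB42- libraries. Its old AB42+, young AB42- and old AB42- ranges did not overlap, and young and old AB42+ overlapped through replicate 3 of each age. Retnlg, a resistin-like secreted protein of neutrophils, ranged from 234 to 374 TPM in young AB42+, 225 to 742 in old AB42+, 749 to 1036 in young AB42- and 772 to 1021 in old AB42- libraries. The young median ratio between sorts was 4.49 for Mmp8, 5.82 for Mmp9, 7.84 for Cxcr2 and 2.59 for Retnlg, and the old one was 2.41, 3.15, 6.87 and 1.61.

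For all 10 members the order of the group means was young AB42+, old AB42+, young AB42-, old AB42-, from lowest to highest. The difference between sorts was larger for members of lower level. Spearman's rho between the mean TPM of a member over the 16 libraries and its mean log2 difference between sorts was -0.85 in young and -0.79 in old pools, across 10 genes that share the same libraries. The makeup of the members also differed between sorts. The sum of Ltf, Camp, Ngp and Lcn2 was 3.34 to 4.38 times the sum of Mmp8, Mmp9, Cxcr2 and Retnlg in young AB42+ libraries, 2.43 to 4.97 times in old AB42+, 1.99 to 2.35 times in young AB42- and 1.79 to 2.12 times in old AB42-. Cxcr2 amounted to 1.897% to 3.12% of S100a8 TPM in young AB42+, 2.54% to 8.33% in old AB42+, 8.49% to 15.9% in young AB42- and 14.3% to 23.7% in old AB42- libraries. The part of duplicate removal in these ratios was not tested.

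Members varied together across libraries. Pearson's r of log2(TPM + 1) over the 16 libraries, which come from 8 pools with 2 sorts each, ran from 0.794 to 0.996 over the 45 pairs of members, with a median of 0.95, and after subtracting group means from 0.17 to 0.99, with a median of 0.83. The 10 genes outside the members whose levels were most like the members' mean, among 20291 genes whose mean reached 5 TPM, had an r of 0.964 to 0.978. They were Anxa1, Wfdc21, Cd177, Fpr1, Chil1, Pygl, G0s2, Pglyrp1, Cd24a and Asprv1. Of these, 6 are on the list of 34 other mature neutrophil genes below (Wfdc21, Cd177, Fpr1, G0s2, Pglyrp1 and Asprv1). The r of these 10 genes spans both sorts, whose contrast chose the members, and that list was written with these data known. The overlap is therefore a description, with no test.

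Age was compared within each sort, which asks whether the members differed between old and young cells that had, or had not, taken up the peptide. The test was two-sided and used limma's linear model on log2(TPM + 1), p values were adjusted over all genes tested by the Benjamini-Hochberg method and called at 0.05, and log2 differences are old minus young on that scale. In AB42+ cells all 10 members had higher means in old pools, by log2 differences of 0.54 (S100a8 and S100a9) to 1.25 (Mmp9 and Cxcr2), and none passed the test. The differences were positive in all 16 alternatives, though S100a8 and S100a9 fell to 0.27 each with upper quartile factors and to 0.18 each with median-of-ratios factors, and Ngp went from 0.56 to 0.20 with the latter. Over all 33578 genes tested 0.0208% were called higher in old. The adjusted p values of the members lay between 0.450 and 0.579 in limma, the only tool run. At an unadjusted p under 0.05 there were 8 members, all but Mmp8 and Retnlg, while 4.7% of all genes were higher in old at that level. With the replicate number as a block in limma, the members' adjusted p values were 0.0702 to 0.209, although young and old numbers share no pool. The members' median log2 difference was 0.79, against 0.38 for all genes tested. The median of all genes was 0.18 with upper quartile and 0.11 with median-of-ratios factors. It was -0.004 with quantile normalization and 0.015 with the background subtracted. S100a8 went from 717 ± 85.8 to 1044 ± 151 TPM (SD, n = 4 each; log2 0.54, SE 0.17) and Mmp9 went from 46.9 ± 12.8 to 133 ± 87.4 TPM (log2 1.25, SE 0.50). S100a8 and S100a9 were the 2 members whose old and young AB42+ libraries did not overlap, which held for 2.85% of all genes in that direction. Without old AB42+ replicate 3, Ltf, Camp and Lcn2 passed the test, at log2 differences of 1.17, 1.05 and 1.17 and an adjusted p of 0.0278, 0.0280 and 0.0278, where 0.113% of all 32689 genes tested were called higher in old. Leaving out any other library gave 0 members.

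In AB42- cells the largest difference was that of Cxcr2, which rose from 132 ± 17.5 TPM in young to 248 ± 41.6 TPM in old libraries (SD, n = 4 each), a log2 difference of 0.89 (SE 0.15) with an adjusted p of 0.0360, higher in 4 of 4 old libraries than in any young one. It was the 1 member of 10 called, where 1.73% of all 31982 genes tested were called higher in old. At an unadjusted p under 0.05 there were 3 members (Mmp8, Mmp9 and Cxcr2), while 10.6% of all genes were higher in old at that level. Mmp8 went from 535 ± 30.6 to 681 ± 43.3 TPM (log2 0.35, SE 0.09, adjusted p 0.0633) and Mmp9 from 300 ± 19.8 to 365 ± 27.3 TPM (log2 0.28, SE 0.09, adjusted p 0.128), without overlap between ages but short of the threshold. Such a lack of overlap, higher in old, held for 5.96% of all genes and for these 3 members. The remaining 7 members had log2 differences of 0.05 to 0.12, with standard errors of 0.11 to 0.20, and overlapping groups, and those of S100a8, S100a9, Ngp and Retnlg turned negative without young AB42- replicate 1. With median-of-ratios factors the differences of these 7 were 0.51 to 0.57. They are the members of highest level, where duplicate removal limits values, and its part was not tested. The members' median was 0.11 while that of all genes tested was -0.56. The call of Cxcr2 was kept in 7 of 16 alternatives and lost in 9, with adjusted p values from 0.00582 to 0.157 and log2 differences from 0.75 to 1.35. It was lost without young AB42- replicate 2, 3 or 4 and without old AB42- replicate 1, 2 or 4, at an adjusted p of 0.105 to 0.157. Leaving out young AB42- replicate 1 gave 3 members called (Mmp8, Mmp9 and Cxcr2) and leaving out old AB42- replicate 3 gave 2 (Mmp8 and Cxcr2), while the count over all genes moved from 687 to 13328 and 4189.

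**Figure D3:**
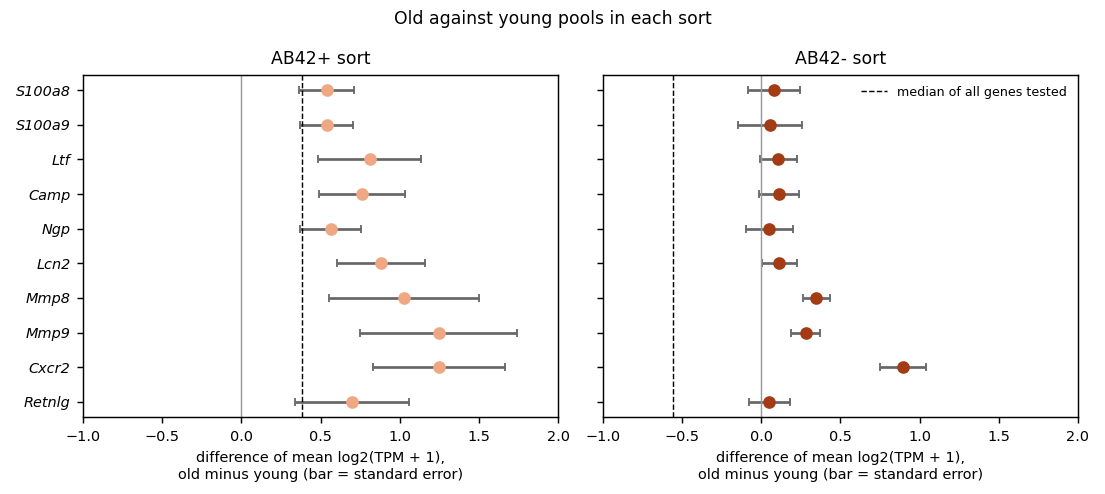
Difference in mean log2(TPM + 1), old minus young, for each member in the AB42+ (left) and AB42- (right) sort. Points are limma estimates from 4 against 4 libraries, bars are standard errors, and the dashed line is the median of all genes tested, 0.38 and -0.56. All estimates are above 0, with Cxcr2 in AB42- cells the only one past the threshold.

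The age difference was smaller in AB42- than in AB42+ cells for all 10 members, by log2 differences of 0.35 (Cxcr2) to 0.97 (Mmp9), but this interaction of age and sort was called for 0 of 10 members in the limma model of all 16 libraries. The adjusted p values were 0.247 to 0.571, Lcn2 had an unadjusted p under 0.05 (0.0270), and 15.6% of all genes did so in the same direction. Of all 34492 genes tested, 0.0116% were called in either direction. The median interaction over all genes was -0.88, below the members' median of -0.65. The direction for single members depended on the scaling, since 9 of the 10, all but Mmp9, turned positive with median-of-ratios factors, and Cxcr2 also with upper quartile factors.

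Other genes of mature neutrophils and their precursors were listed to set beside the members, and these lists were written with earlier results of the same libraries known. In young pools 34 of 34 other mature neutrophil genes, and in old pools 33 of 34, were higher in AB42- in every pool, beside 10.9% and 15.3% of all genes. Since the lists were written with these data known, nothing is read from these shares. The median log2 differences of the 34 genes were 2.20 and 1.66 against 1.39 and 0.66 for the members. The exception in old pools was Cxcr1, which reached at most 7.76 TPM in any library. The 4 most abundant were Pglyrp1, an antibacterial peptidoglycan-binding protein, Hp, the haemoglobin scavenger haptoglobin, Ifitm6 and Mcemp1, with means of 494, 454, 381 and 361 TPM over the 16 libraries. All 8 genes of granulocyte precursors were higher in AB42- in every pool of both ages (10.9% of all genes in young and 15.3% in old pools), with median log2 differences of 3.65 in young and 2.78 in old pools, above those of the members in each age, a difference that was not tested. Among them the primary granule genes Mpo, Elane and Prtn3 had mean levels of 29.2, 26.1 and 25.3 TPM in young AB42+, 104, 126 and 97.7 in old AB42+, 434, 425 and 334 in young AB42-, and 683, 657 and 587 in old AB42- libraries.

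With age, 18 of the 34 other mature neutrophil genes were called higher and 0 lower in old AB42- cells, beside 1.73% of all genes. Their median log2 difference was 0.73, against -0.56 for all genes. Since both lists were written with these data known, nothing is read from this share or from that of the precursor genes below. The number called was 30 without young AB42- replicate 1, 28 without old AB42- replicate 3 and 0 to 3 without any other library, 3 with upper quartile factors and 0 with median-of-ratios factors or all 16 libraries in the fit, and at least 33 of the genes tested had a positive difference in every alternative. Mcemp1 rose from 423 to 658 TPM in mean (log2 0.63, adjusted p 0.0360), while Pglyrp1 (653 to 791 TPM, adjusted p 0.140), Hp (503 to 660 TPM, adjusted p 0.0838) and Ifitm6 (453 to 610 TPM, adjusted p 0.0663) did not pass. Of the 8 precursor genes 3 were called higher (Ms4a3, Fcnb and Cebpe), from 0 to 8 over the alternatives. In old against young AB42+ cells 0 genes of either list were called by limma, with 33 of 34 and 8 of 8 positive and medians of 1.19 and 1.67.

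**Figure D4:**
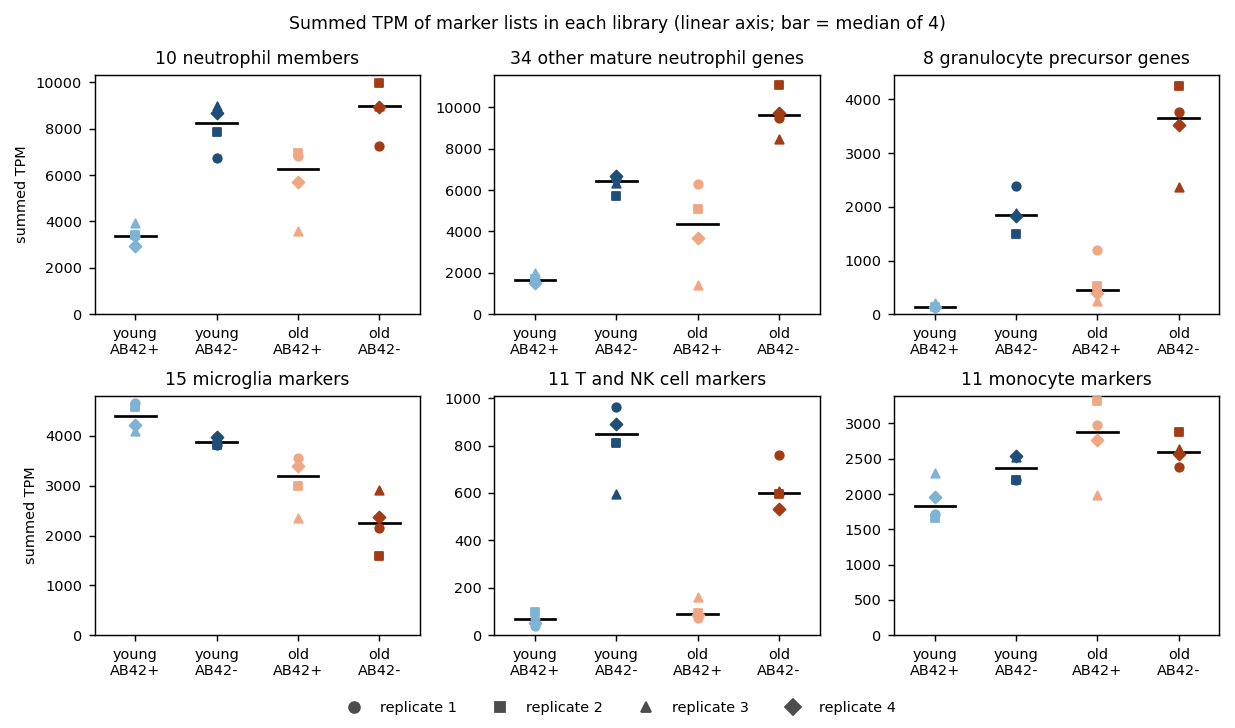
Summed TPM of the members and of 5 marker lists in each library, on linear axes from 0, with points shaped by replicate number and bars for the median of 4. The members, other neutrophil genes and precursor genes are highest in old AB42- libraries, T and NK cell markers in young AB42- libraries, and microglial markers in young AB42+ libraries.

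Markers of other cells moved with the sorts and ages as well. Their lists were also written with these data known, so the shares below are a description. The 11 T and NK cell markers in the table summed to 39.1 to 96.8 TPM in young AB42+, 73.7 to 163 in old AB42+, 596 to 964 in young AB42- and 531 to 758 in old AB42- libraries. In young pools 10 of 11 and in old pools 7 of 11 were higher in AB42- in every pool, beside 10.9% and 15.3% of all genes. Erythroid markers summed to 898 to 1849, 1088 to 1685, 1649 to 5064 and 1344 to 1780 TPM in the same order of groups. Sums of monocyte markers overlapped more, at 1660 to 2300, 1981 to 3311, 2195 to 2542 and 2377 to 2885 TPM. The single markers did not move together. Of the 11, 6 were lower in AB42- in every pool in young and 6 in old pools. Higher in every pool were 3 in young and 2 in old pools, beside 10.9% and 15.3% of all genes. The median log2 difference between sorts over the 11 was -0.31 in young and -0.35 in old pools. B lineage markers reached at most 361 TPM and markers of border macrophages at most 177 TPM, the latter lower in AB42- libraries (17.6 to 47.3 TPM) than in AB42+ libraries (90.3 to 177 TPM). Markers of other brain cells summed to 79.9 to 848 TPM, of which Ttr, the transthyretin gene of choroid plexus, reached 738 TPM in a young AB42- and 750 TPM in an old AB42+ library, and the neuronal genes Snap25 and Syt1 at most 6.97 and 2.35 TPM in any. Microglial markers summed to 2346 to 3564 TPM in old AB42+ and 3816 to 3978 TPM in young AB42- libraries, with 0 of 15 positive in either age comparison and 5 of 15 called lower in old AB42- cells, beside 0.416% of all genes. The part of these other cell types in the members' differences was not tested. No defining marker of the neutrophil, T and NK, erythroid or microglial lists was at 0 in all libraries, and Stfa1, Stfa3 and BC100530 of the neutrophil list were at 0 in 1, 3 and 1 libraries.

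The partners of the members, 27 genes for ligands, receptors, protease inhibitors, growth factor signals and transcription factors, were all tested. Of these, 4 (Fpr2, Csf3r, Cebpe and Gfi1) are also on the neutrophil or precursor lists, so their differences between sorts are a description like those of the members, with no test. Of the other 23, 0 were called higher by limma in young AB42- cells and 3 lower (Cxcl1, Cxcl3 and Cd36), beside 1.43% and 0.243% of all genes. In old cells 2 were called higher (Reck and Cebpd) and 2 lower (Cxcl1 and Cd36), beside 4.74% and 8.23% of all genes. The medians of the 23 were -0.04 in young and -0.81 in old cells, against 0.04 and -0.89 for all genes. Since the same-numbered sorts came from the same pool, the fit was repeated with the pool as a block, which gave 2 calls in young cells, both lower (1.41% and 0.43% of all genes were called higher and lower), with Cxcl3 lost at an adjusted p of 0.0713. In old cells the block gave 13 calls, 4 higher and 9 lower, where 10.7% and 47.2% of all genes were called higher and lower. Cxcl1 and Cd36 were called in young cells whichever library was left out. Cxcl3 was called there without young AB42- replicate 1 but lost without any other library. It was also lost with upper quartile factors, median-of-ratios factors or all 16 libraries in the fit. The 4 calls in old cells became 0 without old AB42+ replicate 2 or 4 or old AB42- replicate 2 or 4, 1 (Cxcl1) without old AB42- replicate 1, 10 without old AB42+ replicate 1, 6 without old AB42+ replicate 3 and 9 without old AB42- replicate 3. They also depended on the scaling. Cd36 was lost in old cells with quantile normalization or the background subtracted, and Cxcl1 with median-of-ratios factors. Cebpd was lost with median-of-ratios factors or quantile normalization, and Reck was kept under each scaling.

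Of the 5 ligands of Cxcr2, 2 were called lower in young AB42- cells and 1 in old, where the receptor had higher levels. Cxcl1, a neutrophil-attracting chemokine, was lower in AB42- cells, at 12.5 ± 4.15 against 68.9 ± 16.5 TPM in young (SD, n = 4 each; log2 -2.38, SE 0.25, adjusted p 0.00155) and 14.4 ± 7.47 against 62.8 ± 14.5 TPM in old libraries (log2 -2.22, SE 0.42, adjusted p 0.0230). Cxcl3 was lower in young AB42- cells, 37.8 ± 9.80 against 76.0 ± 9.36 TPM, with log2 -1.02 and an adjusted p of 0.0386, and in old cells it had log2 -1.01 with an adjusted p of 0.0774 (0.0108 with the block). Cxcl2 was the most abundant ligand and ranged from 368 to 718 TPM over the libraries, with log2 differences of -0.30 in young and 0.02 in old cells that did not pass (adjusted p 0.232 and 0.940). Cxcl5 and Ppbp were at most 14.8 and 17.0 TPM. Between sorts Ppbp was called in no fit and Cxcl5 only with the block, lower in old AB42- cells. Cxcl5 was also called lower in old than young AB42- cells without young AB42- replicate 1.

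Among receptors that bind the members' proteins, Cd36, a scavenger receptor that also binds S100a8 and S100a9 complexes, was lower in AB42- cells, at 1.97 ± 0.76 against 16.1 ± 1.91 TPM in young (log2 -2.54, adjusted p 0.00317) and 2.33 ± 1.98 against 18.4 ± 6.28 TPM in old libraries (log2 -2.64, adjusted p 0.0178). Fpr2, a formyl peptide receptor of neutrophils that also binds cathelicidin, had 248 ± 27.2 TPM in young AB42- and 51.2 ± 10.4 in young AB42+ libraries (log2 2.27), and 426 ± 58.5 in old AB42- and 149 ± 95.3 in old AB42+ libraries (log2 1.902). Lrp1, a large endocytic receptor that takes up lactoferrin, had the highest mean of these receptors over the 16 libraries, with 172.9 to 584 TPM in AB42+ and 118.7 to 435 TPM in AB42- libraries, although Fpr2 was above it in old AB42- libraries. Lrp1 was not called between sorts with all 8 libraries (log2 -0.68 in young and -0.81 in old cells), and was called lower in old AB42- cells without old AB42+ replicate 3. Tlr4, Ager, Bsg, Slc22a17 and Lrp2 were called in no comparison fitted on its own libraries without rescaling or block. Between old sorts, Ager was called higher in AB42- with upper quartile factors, median-of-ratios factors or the background subtracted. With all 16 libraries in the fit, Ager was called higher and Slc22a17 lower in old AB42- than old AB42+ cells. Ager was then also called higher in old than young AB42- cells. With some libraries left out, Tlr4, Ager, Slc22a17 and Lrp2 were called as well.

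Among inhibitors of Mmp8 and Mmp9, Reck, a membrane-anchored inhibitor, was higher in old AB42- than old AB42+ cells, 27.3 ± 4.52 against 13.04 ± 4.47 TPM (log2 1.04, SE 0.26, adjusted p 0.0377). Timp2 was the most abundant inhibitor, at 106 to 342 TPM over the libraries, and was called in no comparison. Timp1, Timp3 and Timp4 were not called between old sorts with all 8 libraries and no block. With the pool as a block they were called lower in old AB42- cells (adjusted p 0.0115, 0.00450 and 0.00839). The same genes were called lower without old AB42+ replicate 1, and Timp3 and Timp4 without old AB42- replicate 3. Timp3 was also called lower with all 16 libraries in the fit. Csf3r, the receptor of the granulocyte growth factor G-CSF, had 23.2 ± 3.62 TPM in young AB42+, 22.2 ± 11.5 in old AB42+, 34.3 ± 6.09 in young AB42- and 48.2 ± 3.99 in old AB42- libraries. It was called in neither age comparison with all 8 libraries, but was called higher in old AB42- cells without young AB42- replicate 1.

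Among the transcription factors, Cebpe had 224 ± 24.8 TPM in young AB42- and 34.6 ± 6.15 in young AB42+ libraries (log2 2.67), and 438 ± 108 in old AB42- and 115 ± 66.3 in old AB42+ libraries (log2 2.06). It rose with age in AB42- cells (log2 0.93, adjusted p 0.0450). Cebpd was higher in old AB42- than old AB42+ cells, 187 ± 30.9 against 106 ± 5.89 TPM (log2 0.80, adjusted p 0.0269), and in old than young AB42- cells (log2 0.70, adjusted p 0.0438). Gfi1, a repressor needed for granulocyte fate, had 25.7 ± 10.6 TPM in old AB42- and 7.52 ± 1.55 in old AB42+ libraries (log2 1.55), and its difference of 1.17 between old and young AB42- cells did not pass (adjusted p 0.0901). Spi1 and Cebpb, which microglia also express, were not called, at 123 to 206 and 212 to 362 TPM over the libraries. With age in AB42- cells 3 of the 27 partners were called higher (Fpr2, Cebpd and Cebpe) and 0 lower, beside 1.73% and 0.416% of all genes. Of these, Fpr2 and Cebpe are on the neutrophil or precursor lists, written with these data known, so nothing is read from this share. The number called higher was 9 without young AB42- replicate 1, 7 without old AB42- replicate 3, 0 without any other library, 0 with upper quartile or median-of-ratios factors and 6 with the replicate block or with the background subtracted. In AB42+ cells limma called 0, with Cebpa, Cebpd, Cebpe and Reck at an unadjusted p under 0.05.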

How the data were processed

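Per the study's methods and the labels, the authors checked and trimmed reads (FastQC 0.11.5, Trim Galore 0.4.2, cutadapt 1.9.1), aligned them to mm10 with STAR 2.5.2a, removed duplicates with Picard 1.89, counted reads per RefSeq gene with featureCounts 1.6.2 and deposited TPM. The strand setting of the counting is not given in the sources used here. All 16 columns were mapped to samples by title, and 0 other columns of values were present. No depth can be had from TPM, and the number of replicates limits the precision.

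The members and all lists were chosen with earlier results of these data known. Genes that reached 1 TPM in 4 or more of a comparison's 8 libraries (of all 16 for the interaction) were tested on log2(TPM + 1) with limma 3.58.1 (R 4.3.3), a mean-variance trend, two-sided, Benjamini-Hochberg adjusted, with each age comparison in its own 8 libraries. The pseudocount understates changes of low genes. Whether replicates came from separate preparations beyond their pools is not stated, so p values measure the spread between these samples. The sort contrast of the members was described by ratios within pools. Partners were named if called between sorts or the most abundant of their role, and genes of other lists if among the 4 most abundant. Cxcr1, Ms4a3, Fcnb, Stfa1, Stfa3, BC100530, Ttr, Snap25, Syt1, Cxcl5, Ppbp, Timp1, Timp3, Timp4, Tlr4, Ager, Bsg, Slc22a17, Lrp2 and Cebpa were named after their values were seen. The lists were other mature neutrophil, granulocyte precursor, microglia, monocyte, border macrophage, B lineage, T and NK cell, erythroid and other brain cell genes.

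Same-numbered AB42+ and AB42- libraries come from the same pool by their titles. Deviations from group means correlated at 0.437 to 0.635 in such pairs 1 and 3 and at -0.0441 to 0.0555 in pairs 2 and 4. Young and old pools share only a number by their labels, although the library codes run on from group to group within each number, and same-numbered young and old libraries correlated at 0.413 to 0.593 in pairs 1 and 3 and at -0.0622 to 0.0318 in pairs 2 and 4. Alternatives were a pseudocount of 0.1 TPM, no low filter, upper quartile and median-of-ratios factors, subtracting the background (the mean of 1124 olfactory receptor and 327 vomeronasal receptor genes, trimmed by 10% at each end), quantile normalization, a replicate block, all 16 libraries in the fit, and each library left out. Applying them to the neutrophil and precursor lists and, beyond the block, to the partners was chosen after seeing the data. The fits were tested on simulated data.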

Additional observations from a re-analysis of the deposited data

Results flagged for a closer look

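Of the 40 sets of 4 libraries (10 members in 4 groups), 3 held a library far from its other 3 by Dixon's criterion, and chance flags about 1 in 20 such sets. S100a9 in old AB42+ replicate 2 was high, at 664 TPM against 495 to 516 TPM. Lcn2 in young AB42+ replicate 4 was low, at 346 TPM against 428 to 433 TPM. Mmp9 in young AB42- replicate 2 was low, at 271 TPM against 306 to 313 TPM. Old AB42+ replicate 3 was not among these values.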

How the results depend on the processing

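Of the members' log2 differences between ages and their interaction, none was called in old against young AB42+ cells or in the interaction under any scaling, filter or pseudocount tried, and leaving out 1 library gave 0 to 3 and 0 to 0 members called. The called number in AB42- cells was 1 with all 8 libraries, 0 with upper quartile factors, median-of-ratios factors or all 16 libraries in the fit, 4 with quantile normalization (Ltf, Lcn2, Mmp8 and Cxcr2), 2 with the background subtracted, and 0 to 3 with 1 library left out. The calls over all genes numbered 687 of 31982 with all 8 libraries, 1217 with quantile normalization, 1654 of 21181 with the background subtracted, 21 and 12 with upper quartile and median-of-ratios factors, 3893 with the block and 1025 with all 16 libraries. The median of all genes in that comparison was -0.56, and -0.47, -0.24, -0.01 and 0.06 with upper quartile, median-of-ratios, quantile and background-subtracted values. The number higher in old AB42- in every pool went from 6 to 10 with median-of-ratios factors and to 10 with quantile normalization, and was 6 to 10 with a pool left out. In AB42- cells the age difference changed sign without young AB42- replicate 1 or old AB42- replicate 2, with ranges over left-out libraries of -0.051 to 0.20 for S100a8, -0.11 to 0.22 for S100a9, -0.056 to 0.17 for Ngp and -0.034 to 0.14 for Retnlg (Retnlg only without the former). The interaction turned positive with median-of-ratios factors, at 0.36 for S100a8, 0.34 for S100a9, 0.12 for Ltf, 0.16 for Camp, 0.31 for Ngp, 0.052 for Lcn2, 0.13 for Mmp8, 0.44 for Cxcr2 and 0.17 for Retnlg, and at 0.015 for Cxcr2 with upper quartile factors. The causes were not tested. With the replicate number as a block, members called in the age comparisons and the interaction stayed at 0, 1 and 0, and the young and old numbers share no pool. Over all 27 partner genes the block gave 4 calls instead of 5 between young sorts and 17 instead of 6 between old sorts. Depth could not be assessed from TPM.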

Other observations

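Across the 52 neutrophil and precursor genes (the members, 34 other mature neutrophil genes and 8 precursor genes), which share the same 8 libraries, the log2 difference between old and young AB42- cells was larger for genes of lower level (Spearman's rho -0.65). The median difference was 0.97 in the 17 genes with a mean under 100 TPM, 0.63 in the 28 genes from 100 to 500 TPM and 0.08 in the 7 genes above 500 TPM, all of which are members. In old against young AB42+ cells rho was -0.20, and the medians were 1.11, 1.25 and 0.70. Duplicate removal limits the highest values, and its part in these differences was not tested.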
